A study of Sus scrofa with 9 samples.

Results

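The genes described here mark B cells and the plasma cells that arise from them: CD79A, CD79B, MS4A1, PAX5, BLK, POU2AF1, JCHAIN and MZB1. They were taken by name from a table of 21357 genes measured by poly(A) RNA-seq in the terminal part of the abdominal aorta, taken from male minipigs of the Tibetan breed, and each of the 8 names had 1 row. The 9 libraries fall into 3 groups of 3. NC pigs ate a normal diet for 24 weeks, H8 pigs a high-fat diet for 8 weeks (labelled hypercholesterolemia) and H24 pigs the high-fat/cholesterol diet for 24 weeks (labelled atherosclerosis). Per the study's methods, the pigs were 3 to 4 months old when purchased, and 3 of the 5 pigs in the NC and in the H24 group were drawn for sequencing. H8 is known from the labels alone. H8 and NC differ in the length of the experiment as well as in the diet, so these cannot be told apart in a comparison of H8 with NC. All groups share breed and sex, and no allele or drug is named. The tissue was checked by 8 smooth muscle markers, whose summed level was 10241 to 14137 FPKM in NC and H8 and 1766 to 12129 FPKM in H24.

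B cells recognise antigen with a surface immunoglobulin that cannot signal by itself. CD79A and CD79B form the paired chains that carry its signal inward, and kinases of the SRC family, of which BLK is the one most restricted to B cells, phosphorylate them. PAX5 fixes B cell identity and POU2AF1 is a B cell coactivator of the octamer-binding factors, while MS4A1 encodes CD20, the surface protein of mature B cells that is lost in plasma cells. JCHAIN links the units of secreted IgM and IgA, and MZB1 is an endoplasmic reticulum protein that helps antibody folding and secretion. In diseased arteries B cells are known mainly from the adventitia, the outer coat, where they can gather with T cells in lymphoid aggregates. In whole-tissue RNA, fewer cells of a type and less RNA per cell cannot be told apart.

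Total counts per library ran from 44094263 to 75787978 with a median of 65728854, so a floor of 3 counts equals 0.0396 to 0.0680 CPM. Levels are given in FPKM, fragment counts scaled by transcript length and by library size, and the estimated counts are given for the low genes. H24 replicate 3 stood apart from the other H24 libraries. Its log2 values correlated with theirs at 0.829 and 0.871, against 0.938 between those 2, its summed smooth muscle markers were at 1766 FPKM and its 10 macrophage markers summed to 1965 FPKM against 182 and 307 FPKM.

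The 8 genes were on the whole barely expressed. CD79A had the highest mean over the 9 libraries, 5.87 FPKM, and stood at percentile 67.6 of the 18900 genes with any count, and JCHAIN followed at 1.13 FPKM and percentile 41.9. BLK (0.157 FPKM), CD79B (0.149 FPKM) and MZB1 (0.129 FPKM) had nearly the same mean and lay near or under percentile 25.5. MS4A1 averaged 0.0348 FPKM from 52 counts in all 9 libraries, PAX5 0.0090 FPKM from 53 counts and POU2AF1 0.0040 FPKM from 4 counts. The ranges of BLK, CD79B and MZB1 over libraries overlapped each other, so no order holds among these neighbours.

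CD79A was the one abundant gene, and its row does not measure CD79A alone. In the table it is a single transcript on the minus strand at chr6:49975961-49999349 of Sscrofa11.1, 23389 bases long. RefSeq, on the same assembly, places CD79A at chr6:49996116-49999294, only 3179 bases including introns. The deposited gene model runs on through ARHGEF1, which encodes a guanine nucleotide exchange factor for RhoA present in many cell types, and shares 19180 bases with the ARHGEF1 row on the same strand. In RefSeq these genes do not overlap. The length that the estimation used can be read from the ratio of count to FPKM, and it was 5177 bases for CD79A (range 5176 to 5179 over the 9 libraries), which is 1998 bases more than the whole RefSeq gene. The ratio needs a scale, which was set in each library on genes with 1 transcript, from the highest ratios relative to their span in the table. UTP3 was among those genes, so its 1691 bases, equal to its span in the table, are no independent check. By this length the CD79A transcript held sequence outside the RefSeq gene, and how many of its reads came from there cannot be told apart in these values.

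**Figure D1:**
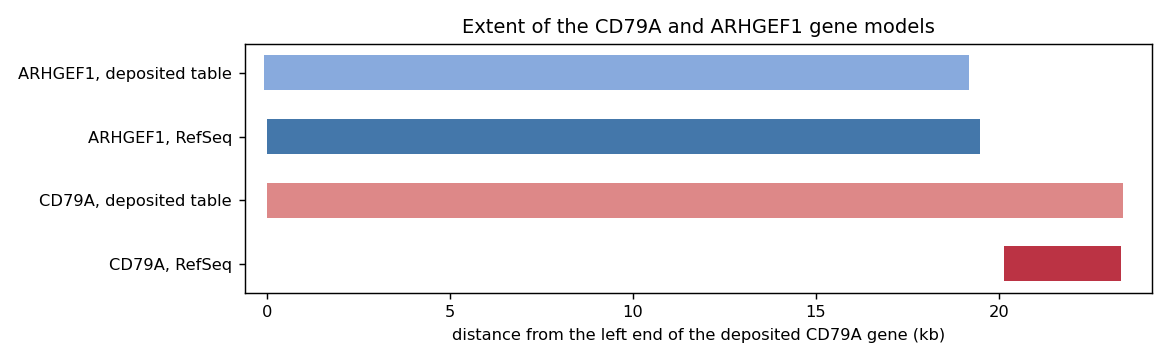
Extent of the CD79A and ARHGEF1 genes in the deposited table and in RefSeq, with distance in kb from the left end of the deposited CD79A gene on the x axis and 1 bar per gene model. The deposited CD79A bar covers nearly all of ARHGEF1, whereas the RefSeq CD79A bar is 3179 bases long and lies to the right of it.

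The row named CD79A was at 5.46, 4.44 and 5.40 FPKM in NC replicates 1 to 3, at 2.42, 1.25 and 3.59 FPKM in H8 and at 9.67, 9.38 and 11.3 FPKM in H24. The 3 groups did not overlap: H8 was lowest, NC in the middle and H24 highest. ARHGEF1 itself was at 10.9 ± 2.94 FPKM in NC, 13.2 ± 1.32 in H8 and 13.1 ± 2.20 in H24 (SD, n = 3) and passed the thresholds in no comparison. The ratio of the CD79A row to the ARHGEF1 row was 0.315 to 0.651 in NC, 0.0937 to 0.303 in H8 and 0.719 to 0.868 in H24. The 3 groups were separate in this ratio, which contains the CD79A row and so is no separate observation. As the 2 rows overlap, the ratio cannot tell which gene the reads came from.

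CD79B, the partner chain, did not follow the CD79A row. It lies at chr12:15052783-15057229 on the plus strand and was at 0.184, 0.569 and 0.106 FPKM in NC, at 0.208, 0.0496 and 0.0208 FPKM in H8 and at 0.117, 0.0713 and 0.0192 FPKM in H24. These are 32, 110 and 18 counts in NC, 36, 9 and 4 in H8 and 20, 8 and 3 in H24. NC replicate 2 was the highest library, the groups overlapped, and H24 was not above NC in its mean. The FPKM ratio of CD79A to CD79B, whose proteins pair one to one in the receptor, ran from 7.81 in NC replicate 2 to 588 in H24 replicate 3.

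The genes restricted to B cells were at or near the floor. MS4A1 (chr2:11216238-11229060, minus strand) had 0 counts in all 3 NC libraries, 0, 8 and 9 counts in H8 and 0, 5 and 30 counts in H24. Of the 52 counts, 30 came from H24 replicate 3. Part of its span, 2915 bases, lies within RefSeq's MS4A4A. Pooled over each group and scaled to total counts, the 35 counts in H24 were 14.1-fold above a floor of 3 counts in NC. This value covers counting error alone and is no lower bound across pigs, as H24 replicate 1 itself was at 0. PAX5 (chr1:237575059-237785158, minus strand) had 8, 0 and 8 counts in NC, 4, 14 and 7 in H8 and 0, 0 and 12 in H24, so no group stood out. POU2AF1 (chr9:39121613-39145201, minus strand) had 4 counts in H8 replicate 1 and 0 in the other 8 libraries.

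BLK, the B cell kinase of the SRC family, was low in NC and H8 and higher in H24. The gene lies at chr14:14688908-14745947 on the plus strand. It was at 0.0698, 0.0318 and 0 FPKM in NC (15, 8 and 0 counts), at 0.0275, 0.0185 and 0.0411 FPKM in H8 (7, 5 and 10 counts) and at 0.535, 0.163 and 0.528 FPKM in H24 (114, 24 and 103 counts). Each H24 library lay above all 6 others, and NC and H8 overlapped. H24 replicate 1, which was not the library that stood apart, had the highest BLK value.

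MZB1, the antibody folding cofactor, had 0 counts in all 3 NC libraries. In H8 it had 6 counts in replicate 2 and 0 in the other two, and in H24 it had 16, 12 and 106 counts, or 0.116, 0.130 and 0.879 FPKM. Every H24 library was above every NC and H8 library, but replicate 3 held 106 of the 134 counts. Pooled over each group and scaled to total counts, MZB1 in H24 was 53.8-fold above a floor of 3 counts in NC. That value covers counting error alone and rests mostly on replicate 3, so it is no lower bound across pigs. The MZB1 row, chr2:141276494-141279602 on the minus strand, shares 1062 bases with RefSeq's SLC23A1 and 2682 bases with a RefSeq long noncoding RNA. The counting is not stated to use strand, so reads from overlapping genes could be included.

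JCHAIN, the joining chain of secreted antibody, did not separate the groups. It was at 1.48, 0.809 and 0.590 FPKM in NC, at 0.847, 0.944 and 0.960 FPKM in H8 and at 1.51, 0.819 and 2.21 FPKM in H24. The lowest H24 library lay inside the NC range. The deposited JCHAIN gene, chr8:67439218-67495044 on the minus strand, has 5 transcripts over 55827 bases against 9224 bases in RefSeq. It encloses UTP3 on the other strand and the unnamed gene ENSSSCG00000040525 on the same strand, with which it shares 4247 bases. It also reaches into RefSeq's RUFY3 by 493 bases. The part of reads from these genes in the JCHAIN values was not tested. UTP3 averaged 10.4 ± 1.77 FPKM in NC, 9.52 ± 2.17 in H8 and 9.06 ± 1.36 in H24 (SD, n = 3), above JCHAIN in every library.

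The effect of 24 weeks of the high-fat/cholesterol diet was examined by comparing H24 with NC. Of the 8 genes 5 passed the filter of a mean of 0.1 FPKM over the 6 libraries, and MS4A1, PAX5 and POU2AF1 did not. By the study's thresholds, a log2 fold change beyond 1 and an unadjusted p under 0.05, BLK and MZB1 were called higher and none was called lower, where 9.95% of all 14828 tested genes were called higher and 1.52% lower. BLK and MZB1 passed the filter only through their H24 libraries, so no count over the tested genes is support for a shift of the group. BLK had a log2 fold change of 3.51 (SE 1.22, edgeR adjusted p = 0.281). The fitted log2 fold change of MZB1 was 8.57 (SE 1.77, edgeR adjusted p = 0.15), a value that depends on how 0 counts are treated and is no bound. The CD79A row had a log2 fold change of 0.97 (SE 0.20, edgeR adjusted p = 0.132), under the fold threshold though its groups did not overlap. CD79B had a log2 fold change of -2.10 (SE 0.97, edgeR adjusted p = 0.402), with the highest NC library at 110 counts, and JCHAIN one of 0.64 (SE 0.52, edgeR adjusted p = 0.635).

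No gene in the table passed an adjusted p of 0.05 in edgeR for H24 against NC (0% of 14828), although 2055 genes had an unadjusted p under 0.05, CD79A, BLK and MZB1 among them. With DESeq2, 2 of the 5 tested members, BLK (adjusted p = 0.0393) and MZB1 (adjusted p = 0.000486), were past both the fold and the adjusted threshold, as were 7.25% of all tested genes with that tool. The groups did not overlap for 3 of the 5 tested members, CD79A, BLK and MZB1, and for 20.6% of all tested genes. BLK and MZB1 were among the tested only through H24, so these shares are not a like comparison. The exact two-sided permutation test of log2(FPKM + 0.1) gave p = 0.1 for each of these 3, the smallest value that 3 against 3 allows.

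The calls of BLK and MZB1 rest on few libraries. Without H24 replicate 3, MZB1 fell under the filter and BLK was the only one called, at a log2 fold of 3.28. In that setting edgeR put 306 of 14578 tested genes past both the fold and the adjusted threshold, but none of the members. The absence of such genes with all libraries thus depended on that library. BLK had an unadjusted edgeR p of 0.0676 without NC replicate 2 and 0.0606 without H24 replicate 1, at folds of 3.50 and 3.30.

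**Figure D2:**
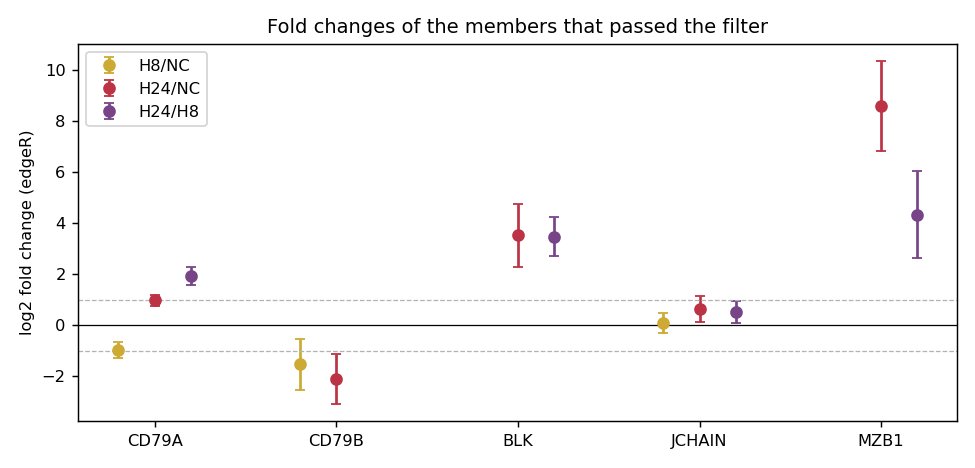
Fitted log2 fold change with its SE (y axis) for the genes that passed the filter in each comparison, in yellow for H8 against NC, red for H24 against NC and purple for H24 against H8, with dashed lines at the fold thresholds of 1 and -1. CD79A lies below 0 for H8 against NC and above 0 for both H24 comparisons, the widest bars belong to MZB1, and the MZB1 value of 8.57 is against an NC group with 0 counts.

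The early stage was examined by comparing H8 with NC. Only CD79A, CD79B and JCHAIN passed the filter, and none was called, where 5.11% of 14336 tested genes were called higher and 2.27% lower. The CD79A row had a log2 fold change of -0.96 (SE 0.33, edgeR adjusted p = 0.262). Its H8 libraries all lay below the NC libraries, which held in either direction for 22.8% of all tested genes, and the exact permutation p was 0.1. CD79B had a log2 fold change of -1.53 (SE 1.01, edgeR adjusted p = 0.520) with overlapping groups, and -0.54 without NC replicate 2. JCHAIN was at 0.09 (SE 0.40, edgeR adjusted p = 0.942), and its sign turned when total counts alone set the scale (-0.07). By adjusted p, edgeR called 0.0279% of all genes and none of the 8. DESeq2 called none of them either, against 4.32% of all genes, and 1 of the 3 tested, CD79A, had an unadjusted edgeR p under 0.05.

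The later stage was examined by comparing H24 with H8, 24 with 8 weeks of the diet. The length of the experiment differs here too, so time on the diet and age at sampling cannot be told apart. Of the 4 genes tested, CD79A, BLK and MZB1 were called higher, where 7.22% of 14788 tested genes were called higher and 3.05% lower. Here too BLK and MZB1 passed the filter through H24. The CD79A row had a log2 fold change of 1.91 (SE 0.35, edgeR adjusted p = 0.336), BLK of 3.47 (SE 0.76, edgeR adjusted p = 0.336) and MZB1 of 4.32 (SE 1.70, edgeR adjusted p = 0.345). JCHAIN stood at 0.51 (SE 0.43, edgeR adjusted p = 0.605). The groups did not overlap for CD79A, BLK and MZB1, as for 21.8% of all tested genes. None was called by adjusted p in edgeR, which called 0.0135% of all genes, while DESeq2 called CD79A and BLK, and 5.11% of all genes. MZB1 lost its call without H8 replicate 1, at a log2 fold of 3.75, or without H8 replicate 3, at 3.72. Its log2 fold was 8.5 without H8 replicate 2, which holds all 6 H8 counts, and it fell under the filter without H24 replicate 3. This comparison shares its H24 libraries with H24 against NC, and the 2 sets of values are not independent.

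Most other genes of B cell receptor signalling, many of which myeloid cells also use, were called higher in H24. Of 19 genes tested in that list of 22, 16 were called higher in H24 against NC and none lower, with a median log2 fold of 3.02, and 13 were called higher without H24 replicate 3, where 6.49% of all 14578 tested genes were. INPP5D, the inositol phosphatase SHIP1, was at 1.02 ± 0.193 FPKM in NC and at 5.96, 8.05 and 28.6 FPKM in H24 (log2 fold 3.79, SE 0.66). The kinase BTK was called at a log2 fold of 4.79 and the exchange factor VAV1 at 5.19. CD81, a tetraspanin of many cell types and the highest of the list at 190 FPKM, was not called (0.42). Against H8, 10 of 19 were called higher in H24, and in H8 against NC 9 of 19. For this list and those below, the shares of all tested genes called higher and lower apply. They were 9.95% and 1.52% in H24 against NC, 5.11% and 2.27% in H8 against NC, and 7.22% and 3.05% in H24 against H8.

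The SRC family gives the closest relatives of BLK. Of 7 kinases 4 were called higher in H24 against NC and none lower. LYN, shared by B cells and myeloid cells, was at 0.839 to 2.13 FPKM in NC and 4.04 to 21.5 FPKM in H24 (log2 fold 2.94), and LCK, the T cell member, had a log2 fold of 2.81. SRC, the highest of the family at 17.4 FPKM, was not called (-0.40). BLK at 0.409 ± 0.213 FPKM in H24 was lower than LYN and LCK in the group mean. Against H8, 3 of 7 were called higher in H24, and in H8 against NC 2 of 7.

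Of the transcription factors of the B lineage, 5 of 14 tested were called higher in H24 against NC, with a median log2 fold of 0.38, and 3 without H24 replicate 3. IRF8 (4.46) and SPI1 (4.91), both also factors of macrophages, and IKZF3 (3.51), found in B, T and NK cells, were called. BCL6, which acts in germinal centre B cells and in many other tissues, was the highest of the list at 31.7 FPKM and was not called (-0.46). In H8 against NC, 2 of 13 were called higher and 1 lower, and in H24 against H8, 4 of 15 higher and 1 lower. Among the other surface genes of B cells, 6 of 11 were called higher in H24 against NC, with or without H24 replicate 3, with a median log2 fold of 3.43. These included CD37 (3.43), a tetraspanin, FCRL3 (4.30), an Fc receptor-like protein, and CD180 (5.79) with LY86 (4.48), its partner, both of which macrophages also carry. Named after their values were seen, 3 genes more restricted to B cells did not move alike. FCRL1, an Fc receptor-like protein of B cells, was at 0.0455, 0.0050 and 0.0115 FPKM in NC and 0.658, 0.162 and 4.38 FPKM in H24 (log2 fold 6.37, SE 1.49) and was called. CXCR5, the receptor for CXCL13, had a log2 fold change of -0.87 and TNFRSF13C, the BAFF receptor, one of 0.77, and neither was called. In H8 against NC 3 of 9 were called higher, and in H24 against H8 6 of 11.

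Of the plasma cell genes, 4 of 18 tested were called higher in H24 against NC and none lower, with a median log2 fold of 0.34. Without H24 replicate 3, 1 of 17 was called higher, near the 6.49% of all tested genes in that setting, and 1 lower. PRDM1, the factor BLIMP-1 that drives plasma cell differentiation and also acts in T cells and macrophages, was at 0.0639, 0.0935 and 0.0472 FPKM in NC and 0.918, 0.685 and 4.68 FPKM in H24 (log2 fold 4.90). SLAMF7 (4.93) and CD38 (2.48), surface proteins of plasma cells and of other leukocytes, were called with overlapping groups. HSPA5, the chaperone BiP and the highest of the list at 128 FPKM, had a log2 fold of -0.00043. In H8 against NC 4 of 17 were called higher and 1 lower, and in H24 against H8 3 of 18 higher and 1 lower. The gene called lower in H8 was TNFRSF17, which encodes the plasma cell survival receptor BCMA and is named after its values were seen. It was at 0.0235, 1.42 and 1.63 FPKM in NC, 0.0062, 0 and 0.0146 FPKM in H8 and 0.0161, 0 and 0.758 FPKM in H24, so it was high in 2 NC libraries and 1 H24 library.

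Signals for B cell homing and survival were called higher in 7 of 13 tested genes in H24 against NC, with a median log2 fold of 1.19, and in 4 of 12 without H24 replicate 3. CXCR4, a chemokine receptor of many leukocytes, had a log2 fold of 3.96, CCR6, on B cells and some T cells, of 3.25 and CCL21, a chemokine of lymphatic endothelium and lymphoid stroma, of 1.95. CCL19, the related chemokine, was the highest of the list at 74.9 FPKM and was not called (-0.19). CXCL13, the main B cell attracting chemokine, was not analysed here. In H8 against NC 1 of 12 was called higher and 1 lower, where 5.11% of all tested genes were called higher and 2.27% lower. In H24 against H8 1 of 13 was called higher, near the 7.22% of all tested genes.

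Markers of other leukocytes were higher in H24 as well, where 9.95% of all tested genes were called higher in H24 against NC. Of 12 T cell markers 10 were called higher in H24 against NC (median log2 fold 4.69; 6 of 9 without H24 replicate 3), and their sum was 1.80 to 2.16 FPKM in NC, 1.90 to 3.27 in H8 and 8.74 to 32.6 in H24. All 10 macrophage markers were called higher (median 4.61; 8 of 9 without that library), with sums of 25.7 to 34.6 FPKM in NC, 33.1 to 188 in H8 and 182 to 1965 in H24. In H8 against NC 5 of 9 macrophage markers were called higher. Their sum was 188 FPKM in H8 replicate 1, which had 7 counts of BLK and 0 of MZB1. It was 182 FPKM in H24 replicate 2, which had 24 counts of BLK and 12 of MZB1. Of 9 listed markers of plasmacytoid dendritic cells, which can express BLK and MZB1, 5 were tested. IRF7, TLR7 and TLR9, 3 of the 5, were called higher in H24 against NC (2 of 4 without H24 replicate 3). TCF4 and GZMB were not called. IL3RA, CLEC4C and LILRA4 were not found by name, and LAMP5 had 0 counts in all 9 libraries. Of neutrophil markers 3 of 5 were called higher (1 of 3 without H24 replicate 3). Neither smooth muscle (0 of 8, median -0.88) nor endothelium (0 of 6) had a gene called in either direction. Of adipocyte markers 2 of 6, and of follicular dendritic cell and lymph node stroma markers 1 of 3 tested from a list of 7, were called higher. The part of these cells in the BLK and MZB1 values was not tested.

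Without CD79A and JCHAIN, whose rows reach furthest beyond their RefSeq genes, the other 6 genes summed to 0.119 to 0.601 FPKM in NC, 0.112 to 0.277 in H8 and 0.400 to 1.64 in H24, so the lowest H24 library was below the highest NC library. In NC replicate 2 CD79B gave 0.569 of the 0.601 FPKM, while in H24 BLK and MZB1 gave most of the sum. PTPRC, the pan-leukocyte gene CD45, was at 0.184 to 0.257 FPKM in NC and at 4.00, 0.855 and 22.8 FPKM in H24. In the library with the most PTPRC and the most macrophage signal, H24 replicate 3, MZB1 and MS4A1 had their highest values and CD79B its lowest.

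**Figure D3:**
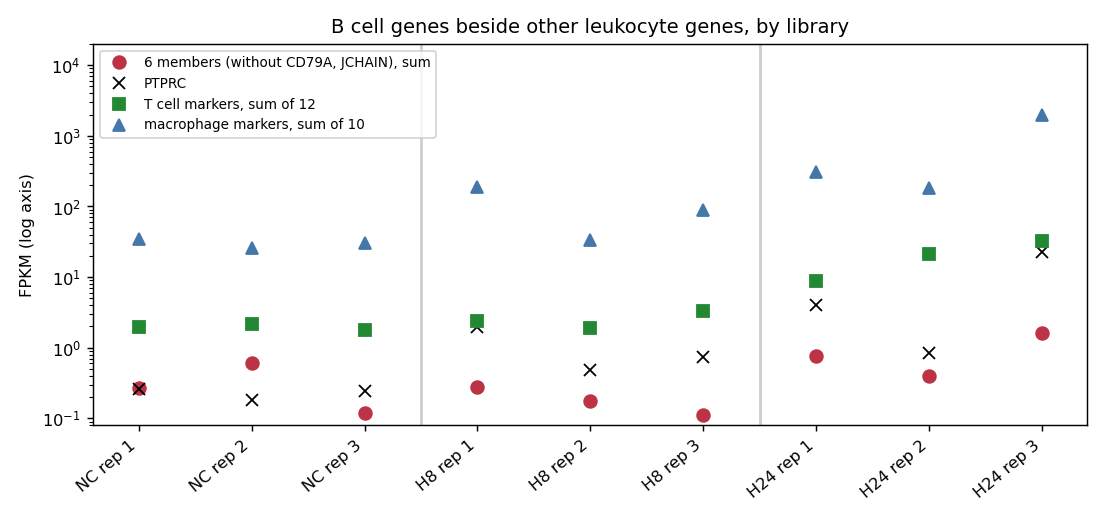
Summed FPKM (log axis) of the 6 genes without CD79A and JCHAIN, of PTPRC, of 12 T cell markers and of 10 macrophage markers in each of the 9 libraries (x axis, by group and replicate). The T cell markers reach 8.74 to 32.6 FPKM in H24 against at most 3.27 elsewhere, while the 6 B cell genes reach at most 1.64 FPKM.

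No row was named as an immunoglobulin heavy or light chain gene. Rows annotated by the deposited table to the circulating immunoglobulin complex were looked up after the member values were seen, and there were 4. One is TRDC, a T cell receptor gene, with a log2 fold change of 4.37 in H24 against NC, and another had 0 counts in NC and at most 9 in any library. ENSSSCG00000010044, at chr14:49001068-49001385 within a RefSeq constant region segment, had 32, 3 and 6 counts in NC, 7, 25 and 13 in H8 and 69, 40 and 192 in H24. Its H24 libraries lay above all others in FPKM, and it was called in H24 against NC (log2 fold 3.03, SE 1.07, edgeR adjusted p = 0.286) and against H8 (2.74). ENSSSCG00000036224, at chr3:57214452-57323512 over several RefSeq variable segments, had 857, 24 and 53 counts in NC, 56, 60 and 72 in H8 and 299, 164 and 2661 in H24. Its highest NC library exceeded 2 of the H24 libraries and it was called against H8 (log2 fold 4.07) but not against NC (1.88). Rows of this kind share near-identical sequence with other segments, so their counts are uncertain.

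The genes whose profile over the 9 libraries was most like the mean profile of the members with at least 10 counts, which leaves out POU2AF1, by Pearson's r of log2(CPM + 0.1) among genes with a mean of at least 0.5 FPKM, were COMMD4 (0.980), G6PC3 (0.980), TSPAN4 (0.977), PALM3 (0.977) and SDC2 (0.976). For single genes the 2 nearest were PHKG2 (0.974) and KDM5D (0.971) for CD79A, AVPR1A (0.934) and MED9 (0.895) for CD79B, CFL1 (0.967) and CRELD2 (0.957) for MS4A1, and SUCLG1 (0.930) and NIT1 (0.929) for PAX5. They were LTC4S (0.967) and S100A4 (0.963) for BLK, METTL8 (0.972) and GALNT10 (0.956) for JCHAIN, and MFSD3 (0.989) and IL27RA (0.969) for MZB1. These are descriptions over 9 libraries that share groups and depth, chosen as the highest of many genes.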

How the data were processed

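Poly(A) mRNA was sequenced in paired-end mode, 3 libraries per group, and none was left out. Alignment by the authors used HISAT 2.0 and the pig assembly Sscrofa11.1, and their FPKM values came from StringTie 1.3.0. Beside each FPKM value the authors deposited an estimated count, a whole number. How the authors derived these counts, the annotation release and strandedness are not given in the sources used here. The submitters' processing notes also list Bowtie 0.12.2 and a mouse build, and the extraction text speaks of adipose tissue.

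From these counts, edgeR 4.0.16 (R 4.3.3) was run for each pair of groups with TMM normalization, genes of mean FPKM at least 0.1 in the 6 libraries, and the two-sided quasi-likelihood test with Benjamini-Hochberg adjustment over all tested genes. The SE is the log2 fold change divided by the root of F. Genes were called by a log2 fold change beyond 1 with unadjusted p under 0.05, and by adjusted p under 0.05 with the same fold. The script was tested on simulated data. Alternatives used limma 3.58.1 on log2(FPKM + 0.1) or log2(FPKM + 1), DESeq2 1.42.0, other scalings, filters, blocks and left-out libraries.

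The members and gene lists were chosen with earlier results of these data known. Named were the 8 members and, per pathway list, at most 3 genes of smallest p in H24 against NC and the gene of highest mean FPKM, besides like-profile genes; TNFRSF17, FCRL1, CXCR5, TNFRSF13C and the immunoglobulin rows were added after their values were seen. Some genes the rule would name are not reported here. RefSeq coordinates are of Sscrofa11.1, and all 8 members matched by symbol. Per the study's methods the NC and H24 libraries are from separate pigs. For H8 this is not given in the sources used here. Log2 values correlated at 0.932 to 0.962 between H8 libraries and at 0.958 to 0.963 between NC libraries. Whether the H8 spread is technical was not tested. Intervals of precision other than SE were not computed; floors cover counting error only.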

Additional observations from a re-analysis of the deposited data

Results flagged for a closer look

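All 3 H8 libraries lay below the NC libraries in the CD79A row (1.25 to 3.59 against 4.44 to 5.46 FPKM) and all 3 H24 libraries above them (9.38 to 11.3 FPKM). The row was singled out because H8 and H24 lie on opposite sides of NC. Neither difference from NC passed the thresholds (log2 fold changes of -0.96 in H8 and 0.97 in H24). The edgeR comparison of H24 with H8 gave a log2 fold change of 1.91 and an adjusted p of 0.336, which is a description of a row chosen for this pattern. The row reaches over ARHGEF1, and the part of those reads in the pattern was not tested.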

How the results depend on the processing

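Called members in H24 against NC (2) came to 0 with limma on log2(FPKM + 1) and with a filter of mean FPKM 1, and to 1 to 3 when 1 library was left out. In H24 against H8 (3) they came to 1 with those same settings and to 2 to 3 with 1 library left out. In H8 against NC (0) they came to 1 with library size only in edgeR, with limma on log2(FPKM + 0.1) and with the replicate block, and to 0 to 1 with 1 library left out. DESeq2 called 2 and 2 members by adjusted p in the H24 comparisons, where edgeR called 0. Over the whole table DESeq2 called 1075 and 755 genes in these comparisons and edgeR 0 and 2.

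The H8 against NC change of CD79A was beyond 1 in size in these 3 settings (-1.09, -1.16 and -1.06 in that order), without NC replicate 2 (-1.03) and without H8 replicate 3 (-1.32). In H24 against NC CD79A was just beyond 1 (at most 1.02) without NC replicate 1, H24 replicate 1 or H24 replicate 2. CD79B passed the thresholds in H24 against NC with DESeq2 (-2.11) and with no dispersion trend (-2.10), and in H8 against NC without H8 replicate 1 (-2.82). Without NC replicate 2, CD79B came to -0.54 in H8 against NC and fell under the filter in H24 against NC. The sign of JCHAIN in H8 against NC reversed with library size only (-0.071), limma on log2(FPKM + 1) (-0.0055), and without NC replicate 2 (-0.00054), NC replicate 3 (-0.17) or H8 replicate 2 (-0.01), within a range of -0.17 to 0.51 over the left-out libraries; the cause was not tested. Library size only moved the median of all genes to -0.13 in H8 against NC and 0.24 in H24 against H8.

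Libraries of the same number in different groups deviated from their group means with correlations of -0.0815 to 0.105, against -0.193 to 0.202 for other pairs. No pairing by number was seen, and a weak one could not be detected with 3 libraries per group. With the replicate block, 2, 1 and 2 members were called in H24 against NC, H8 against NC and H24 against H8, and MZB1 lost its call in the last. Without H24 replicate 3, chosen after seeing the data, called genes in H24 against NC came to 6 from 10 in the T cell list and to 1 from 3 in the neutrophil list. PAX5 and POU2AF1 are limited by depth to their counts. MS4A1, which the filter leaves out, was past the thresholds in H24 against NC with no filter (log2 fold change 6.68, 30 of its 35 counts in 1 library), which makes the called members 3 there.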
